A study of Mus musculus with 12 samples.

Results

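The aryl hydrocarbon receptor (AHR) system was read in mouse liver through 7 genes, which encode the receptor (Ahr), its partner (Arnt), its repressor (Ahrr), 3 cytochrome P450 enzymes under its control (Cyp1a1, Cyp1a2, Cyp1b1) and Tiparp, an enzyme that AHR induces and that acts back on the receptor. Every probe set that the array's annotation assigned to 1 of these genes was taken, which gave 7 of the 18193 genes and 16 of the 45037 probe sets tested: 5 for Arnt, 3 each for Cyp1b1 and Tiparp, 2 for Ahr and 1 each for Ahrr, Cyp1a1 and Cyp1a2. Each probe set reads a transcript with several short probes. The rule that picks the probe sets uses gene names only.
The livers came from male C57BL/6 mice in 3 groups of 4 arrays. The SHS4m+1m recovery mice (replicates 70 to 73) breathed secondhand smoke (SHS) for 4 months and then clean air for 1 month, the SHS4m mice (replicates 66 to 69) were taken at the end of the 4 months, and the control mice (replicates 1 to 4) were sham-exposed to filtered air. SHS was given to the whole body and was mostly sidestream smoke of reference cigarettes. Control mice with and without the extra month existed in the study, and the labels do not say which of them the 4 control arrays hold, so age and recovery cannot be told apart to that extent. Nor do the labels state that each array held a single mouse, and if some did not, the p-values would measure a spread that is partly technical.
AHR is a transcription factor of the bHLH-PAS family that rests in the cytosol with the chaperone HSP90 and is activated when it binds a planar aromatic compound, such as the polycyclic hydrocarbons of smoke. In the nucleus it pairs with ARNT and binds DNA at xenobiotic response elements, whose core letters are GCGTG. Its best known target is Cyp1a1, which is scarcely expressed in an untreated liver and strongly inducible, whereas Cyp1a2 is expressed in hepatocytes around the central vein without any inducer. Mice of the C57BL/6 strain carry an Ahr allele with high affinity for ligands. AHRR competes with AHR for ARNT, and TIPARP, an ADP-ribosyltransferase, lowers AHR signalling.
The 250 bases before the start site are shown for 4 of the genes, because they differ in how many copies of the response element core they hold. They are RefSeq sequences of mouse build GRCm38.p6, written 5′ to 3′ on the strand of the gene, and capitals mark GCGTG or, for a core on the opposite strand, CACGC. Cyp1a1 (chr9:57697363-57697612, plus strand) and Cyp1a2 (chr9:57683656-57683905, minus strand) lie head to head with 13957 bases between their start sites. The other pair are Tiparp (chr3:65528197-65528446, plus strand) and Ahrr (chr13:74292332-74292581, minus strand).
Cyp1a1: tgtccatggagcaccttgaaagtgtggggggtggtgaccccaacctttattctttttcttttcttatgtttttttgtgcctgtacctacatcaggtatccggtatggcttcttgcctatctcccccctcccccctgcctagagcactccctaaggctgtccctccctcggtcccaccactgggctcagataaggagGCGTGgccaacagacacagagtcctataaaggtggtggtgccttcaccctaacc
Cyp1a2: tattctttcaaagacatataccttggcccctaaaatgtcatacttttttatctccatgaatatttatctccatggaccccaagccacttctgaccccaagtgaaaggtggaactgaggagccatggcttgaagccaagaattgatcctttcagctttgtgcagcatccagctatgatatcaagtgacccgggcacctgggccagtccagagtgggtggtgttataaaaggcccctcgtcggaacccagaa
Tiparp: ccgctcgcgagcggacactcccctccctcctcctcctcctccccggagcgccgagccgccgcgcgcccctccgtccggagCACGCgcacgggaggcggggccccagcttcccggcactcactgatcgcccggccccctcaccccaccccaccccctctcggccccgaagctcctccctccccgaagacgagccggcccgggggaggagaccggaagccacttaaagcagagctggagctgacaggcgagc
Ahrr: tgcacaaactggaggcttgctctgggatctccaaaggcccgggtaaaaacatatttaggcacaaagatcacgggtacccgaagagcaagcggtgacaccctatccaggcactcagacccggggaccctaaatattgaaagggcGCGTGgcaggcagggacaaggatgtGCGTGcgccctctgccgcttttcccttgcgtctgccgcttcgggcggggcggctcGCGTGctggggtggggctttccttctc
Cyp1a1 held 1 core at bases 54 to 50 before its start site, and Tiparp held 1 on the opposite strand at bases 170 to 166. Ahrr held 3 and Cyp1a2 none. Arnt, with 1, and Cyp1b1, with 1 on the opposite strand, complete the 6 genes that had a promoter in the reference table, 5 of which held a core. Among all 32851 promoters searched in the same way, 28.2% held at least 1. A match describes letters in this window only, and the best studied response elements of Cyp1a1 are known to lie farther upstream.
Signals are linear intensities that the authors scaled to a common trimmed mean of 500 per array. Values below 32, which were 29.9% to 33.5% of each array, were raised to that floor before the log2 was taken, so a change near the floor is understated. The arrays of a group correlated at 0.9718 to 0.9797 across probe sets. The array of recovery replicate 72 stood apart in the ratio of 3′ to 5′ signal of actin, which increases as RNA degrades: it was 8.82, against 3.24 to 4.64 on the other 11 arrays. In such bulk samples, fewer cells of a type and less RNA per cell cannot be told apart. No hepatocyte marker passed the test in any comparison (4 of 5 on the array). The 8 measured markers of pericentral hepatocytes, the cells that hold most Cyp1a2, summed to 83376 to 114454 in recovery mice, 86922 to 101834 in SHS4m mice and 106010 to 118813 in control mice, and 1 of the 8 (Lgr5, log2 difference -1.03, adjusted p = 0.0257) was lower in SHS4m mice than in control mice. Of the 6 measured periportal markers Pck1 was higher in SHS4m mice than in control mice (1.20, adjusted p = 0.0126), and of the 5 Kupffer cell markers Marco was higher (1.90, adjusted p = 0.0137) and Clec4f lower (-0.51, adjusted p = 0.0173). In recovery mice Hsd17b13, a periportal marker (0.50, adjusted p = 0.0426), and Clec4f (0.46, adjusted p = 0.0442) were higher than in SHS4m mice. No other marker of the 8 cell type lists passed in either comparison, and none passed between recovery and control mice. The part of these levels in the results that follow was not tested.
In the livers of SHS4m mice 4 of the 7 genes were higher than in control mice, and no gene was lower. Cyp1a1 was 3.41-fold higher, Ahr 1.76-fold, Tiparp 1.69-fold and Cyp1a2 1.34-fold. These calls covered 5 of the 16 probe sets at an adjusted p under 0.05 (limma, Benjamini-Hochberg over all probe sets), where 5.40% of all probe sets were called and 2.52% were called higher. Of all calls 46.7% were higher, or 60.9% with each array centred on its median, and the 5 calls held under that scaling. The signals of SHS4m and control mice did not overlap at these same 5 probe sets, and 5.13% of all probe sets had groups apart in that direction. The median log2 difference of the 16 probe sets was 0.08, and that of all probe sets was 0.00. At the threshold used in the study, taken as an unadjusted p under 0.05 with a 2-fold change, 2 of the 16 passed, against 2.47% of all. They were Cyp1a1 and a dim probe set of Ahr (1450695_at) that was not called by limma (adjusted p = 0.183). The called probe sets of Ahr, Cyp1a2 and Tiparp did not reach that threshold.

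**Figure D1:**
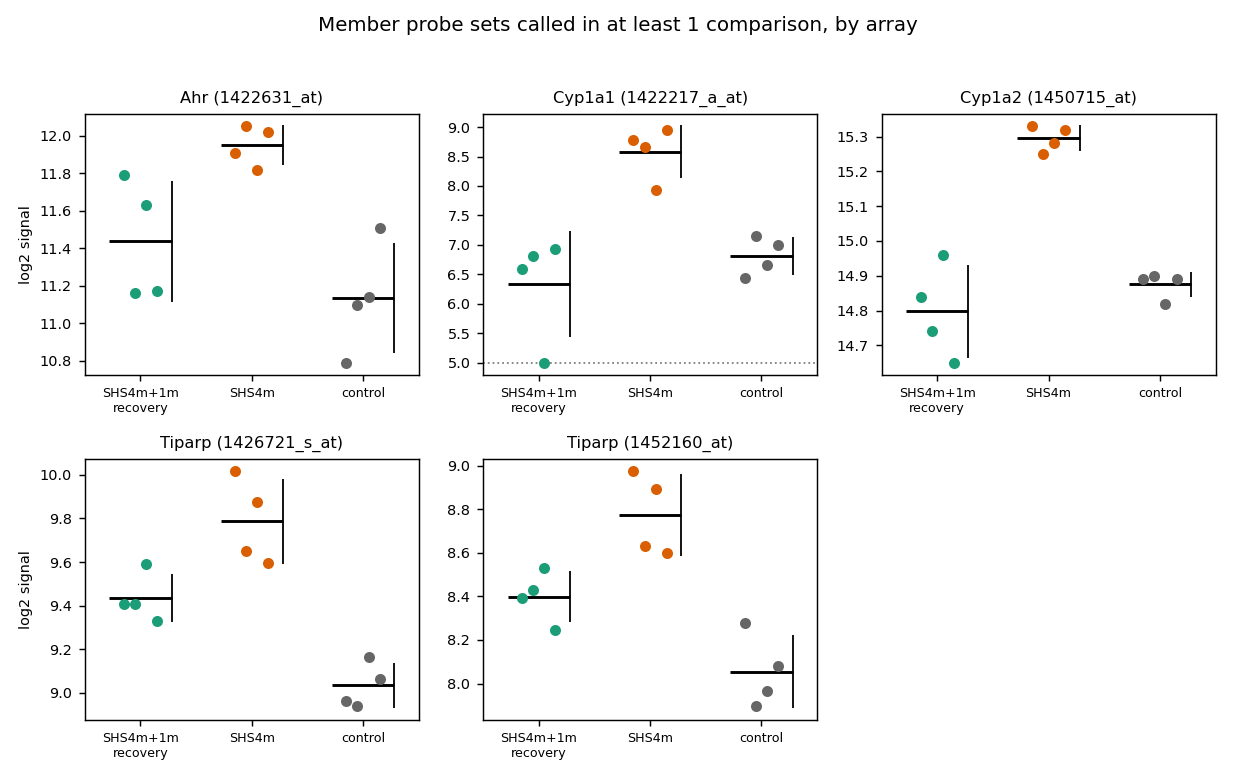
Log2 signal (y axis) of the Ahr, Cyp1a1, Cyp1a2 and Tiparp probe sets called in a comparison, on each array of the SHS4m+1m recovery, SHS4m and control groups (x axis, n = 4 each). Points are arrays, horizontal bars are group means, vertical lines are ±1 SD and the dotted line is the floor, and all SHS4m points lie above all control points in each panel.

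Cyp1a1, which oxidises polycyclic hydrocarbons and is the classical reporter of AHR activity, gave the largest difference of the called members. Its signal (probe set 1422217_a_at) was 95.9, 113, 17.1 and 122 in recovery replicates 70 to 73, 438, 404, 245 and 496 in SHS4m replicates 66 to 69, and 86.2, 142, 101 and 128 in control replicates 1 to 4. Every SHS4m array was above every other array, and recovery and control arrays overlapped. The log2 difference of SHS4m from control was 1.77 (SE 0.416, 95% interval 0.84 to 2.704, adjusted p = 0.0387, limma). Recovery mice were lower than SHS4m mice by a log2 difference of -2.25 (SE 0.416, adjusted p = 0.0255). From control mice the recovery mice differed by -0.48 (95% interval -1.41 to 0.46, adjusted p = 0.692), an interval that leaves room for differences in both directions. Recovery replicate 72, the array with the high actin ratio, was the only one below the floor. Without it the adjusted p of SHS4m against control was 0.00541 and the difference of recovery from SHS4m was -1.80 (adjusted p = 0.0165). Dropping control replicate 1, 2, 3 or 4, SHS4m replicate 66, 67 or 69, or recovery replicate 70 removed the call against control (adjusted p 0.0549 to 0.0982), with the difference at 1.64 to 1.88. The call against SHS4m was removed by dropping SHS4m replicate 66, 67 or 69 (adjusted p 0.0629 to 0.0691).
Cyp1a2, which metabolises caffeine and aromatic amines, had the smallest of the called differences and a narrow spread. Its signal (1450715_at) was 29320, 27339, 31810 and 25648 in recovery mice, 41104, 39004, 39726 and 40845 in SHS4m mice, and 30408, 30659, 28895 and 30390 in control mice. All SHS4m arrays lay above all others. SHS4m differed from control by 0.42 on the log2 scale (SE 0.0579, adjusted p = 0.00392), and recovery from SHS4m by -0.50 (SE 0.0579, adjusted p = 0.00381). Between recovery and control the difference was -0.08 (95% interval -0.21 to 0.05, adjusted p = 0.661). Leaving out any 1 array kept both calls, in 12 of 12 fits. The 8 pericentral markers given above, of which 0 were higher and 1 was lower, had a median log2 difference of -0.02 between SHS4m and control.
Ahr, the receptor itself, was read by a bright and a dim probe set. The bright one (1422631_at) had signals of 3541, 2295, 3160 and 2303 in recovery mice, 3837, 4228, 3628 and 4155 in SHS4m mice, and 1771, 2189, 2258 and 2922 in control mice. SHS4m arrays were above all others, and recovery arrays spread over the upper part of the control range and beyond it. SHS4m differed from control by 0.81 (SE 0.177, 95% interval 0.42 to 1.21, adjusted p = 0.028), and dropping control replicate 1, 2 or 3 or any SHS4m replicate removed the call (adjusted p 0.0532 to 0.0745). Recovery differed from control by 0.30 (95% interval -0.09 to 0.70, adjusted p = 0.541) and from SHS4m by -0.51 (adjusted p = 0.202). The dim probe set (1450695_at) had 37.96 to 88.4 in recovery mice, 88.97 to 115 in SHS4m mice and 21.2 to 106 in control mice. It differed between SHS4m and control by 1.13 (adjusted p = 0.183), and without control replicate 4, the control array at 106, the adjusted p was 0.0237.
Tiparp was higher in SHS4m mice at 2 of its 3 probe sets. Probe set 1426721_s_at had 679.6, 679.8, 770.2 and 643 in recovery mice, 1041, 805, 939 and 774 in SHS4m mice, and 499, 492, 575 and 535 in control mice. The 3 groups did not overlap, and recovery mice lay between the other groups. The log2 difference of SHS4m from control was 0.75 (SE 0.0989, adjusted p = 0.00318), that of recovery from control 0.40 (95% interval 0.18 to 0.62, adjusted p = 0.0806) and that of recovery from SHS4m -0.35 (adjusted p = 0.113), of which the first passed the test. Probe set 1452160_at gave the same order of group means, with a difference of 0.72 between SHS4m and control (SE 0.11, adjusted p = 0.00629). Both calls held in 12 of 12 fits that left out 1 array. The third probe set (1452161_at) was dimmer, at 108 to 137 in recovery mice, 131 to 229 in SHS4m mice and 125 to 205 in control mice, and differed by -0.05 between SHS4m and control (95% interval -0.50 to 0.39, adjusted p = 1.0). Between recovery and control it differed by -0.53 (95% interval -0.97 to -0.08, adjusted p = 0.26), opposite in sign to 1426721_s_at (0.40) and 1452160_at (0.34, adjusted p = 0.175), and none of these passed. The probe sets of Tiparp therefore did not give 1 answer, and the suffix of 1426721_s_at marks probes that may match more than 1 transcript.

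**Figure D2:**
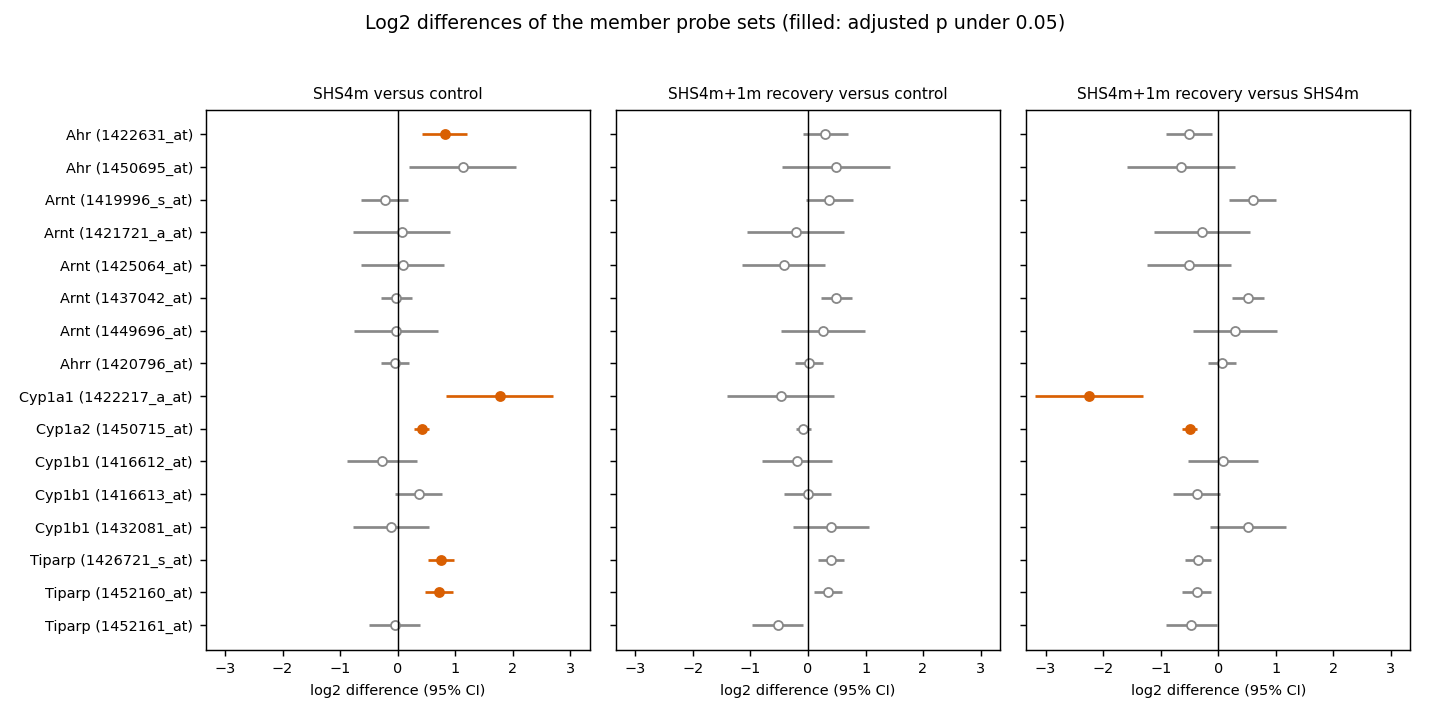
Log2 difference (x axis, with 95% interval) of each of the 16 probe sets (y axis) in the comparisons of SHS4m with control, SHS4m+1m recovery with control and SHS4m+1m recovery with SHS4m. Filled points passed an adjusted p of 0.05: 5 in the first comparison, 0 in the second and 2 in the third.

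Arnt, which pairs with AHR and also with the hypoxia-inducible factors, was read by 5 probe sets, none of which passed the test in any comparison. The brightest (1437042_at) had 789.6, 770.2, 628 and 867 in recovery mice, 528, 465, 546 and 590.3 in SHS4m mice, and 608, 472, 496 and 599 in control mice. All recovery arrays were above all arrays of both other groups, while SHS4m and control overlapped. Recovery differed from control by 0.49 (95% interval 0.22 to 0.76, adjusted p = 0.0806) and from SHS4m by 0.52 (95% interval 0.24 to 0.79, adjusted p = 0.0625), and without recovery replicate 72 the second of these passed (adjusted p = 0.0399). Probe set 1419996_s_at had 287 to 474 in recovery mice, 198 to 283 in SHS4m mice and 230.0 to 347 in control mice, and recovery and SHS4m did not overlap (log2 difference 0.60, adjusted p = 0.144). The other three reached at most 187.5, and in no comparison did their groups separate.
The repressor Ahrr and the P450 Cyp1b1 were at or near the floor. Ahrr (1420796_at) exceeded 32 on 1 array of each group, at 42.3 in recovery replicate 72, 35.97 in SHS4m replicate 67 and 40.2 in control replicate 2. Cyp1b1, which is expressed mostly outside hepatocytes, exceeded the floor on 5 (1416612_at), 3 (1416613_at) and 7 (1432081_at) of 12 arrays, and its highest signal was 78.4. Their log2 differences were between -0.37 and 0.52 over the 3 comparisons, none with an adjusted p under 0.355. At these signals a fall, or a rise that stayed under the floor, would be hidden or understated for either gene. The lack of a call does not show that there was none. No group had all its arrays above the floor at any of these probe sets.

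**Figure D3:**
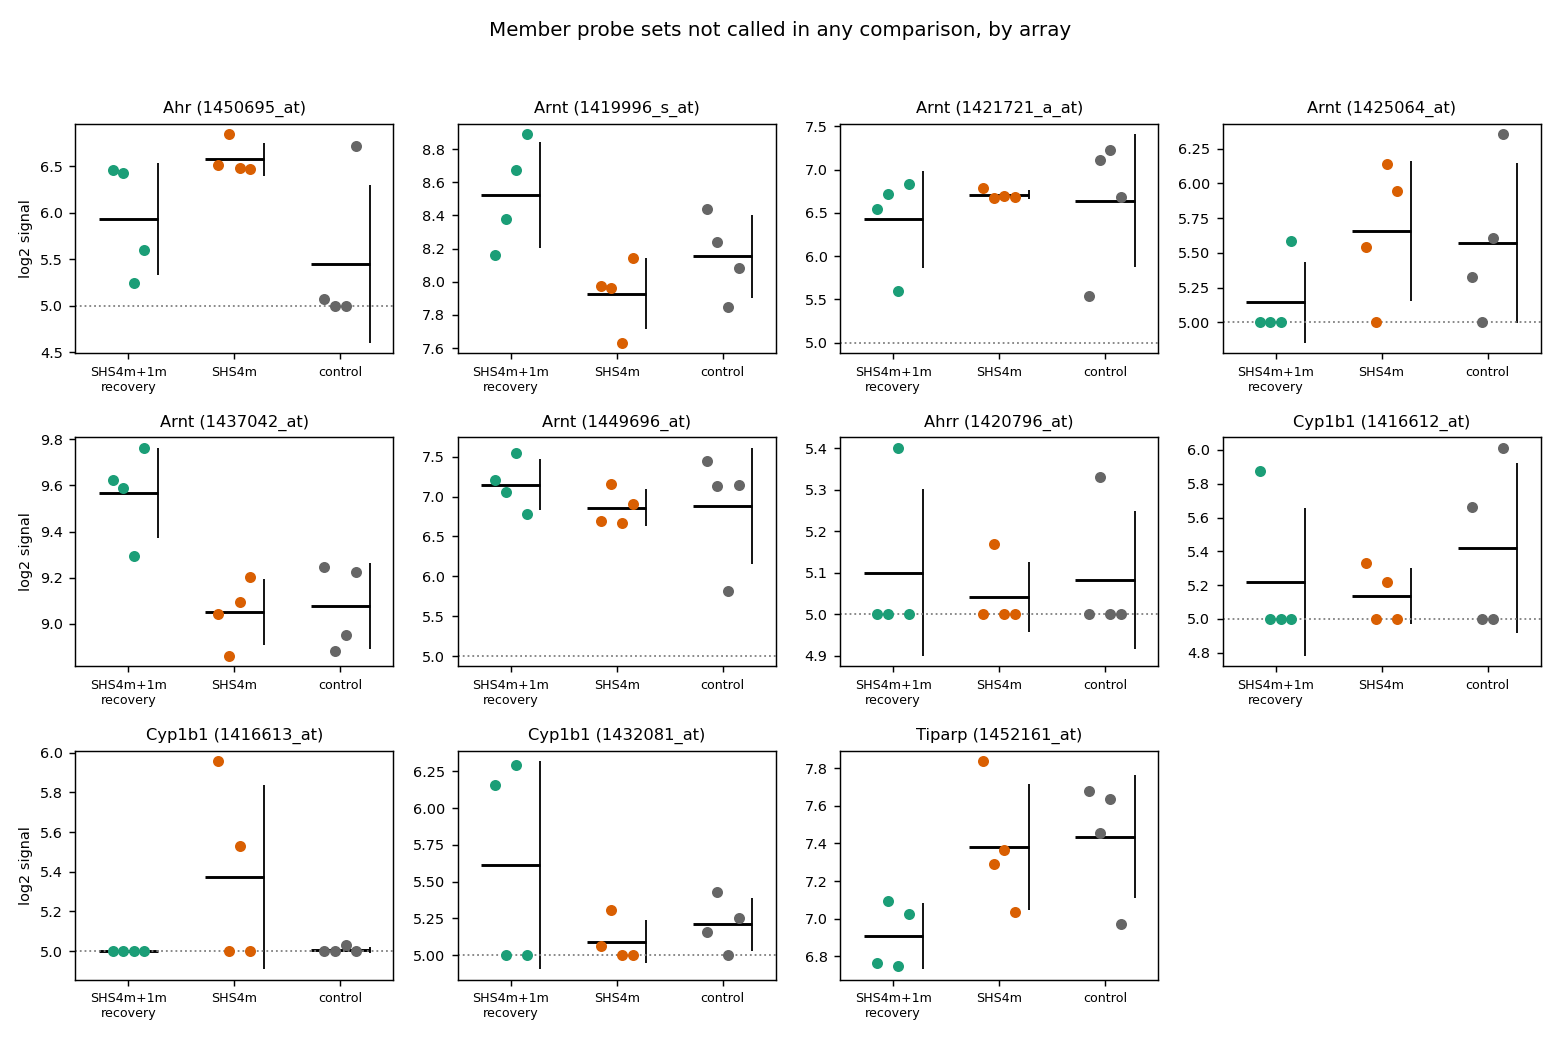
Log2 signal (y axis) of the 11 probe sets of Ahr, Arnt, Ahrr, Cyp1b1 and Tiparp that passed the test in no comparison, on each array of the SHS4m+1m recovery, SHS4m and control groups (x axis, n = 4 each). Points are arrays, horizontal bars are group means, vertical lines are ±1 SD and the dotted line is the floor, where Ahrr and Cyp1b1 lie on most arrays and where Arnt 1437042_at has all 4 recovery arrays on top.

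After 1 month of clean air none of the 16 probe sets differed from control at an adjusted p under 0.05, where 2.07% of all probe sets did, and none passed the threshold of the study (1.37% of all). At an unadjusted p under 0.05 there were 4 of the 16, against 13.3% of all: Arnt 1437042_at and Tiparp 1426721_s_at and 1452160_at with higher means in recovery mice, and Tiparp 1452161_at with a lower one. Arnt 1437042_at and Tiparp 1426721_s_at had recovery arrays wholly above control arrays, a pattern shown by 3.25% of all probe sets. The median log2 difference was 0.14, and 0.00 over all. Set against SHS4m mice, recovery mice were lower at 2 probe sets, Cyp1a1 and Cyp1a2, where 2.54% of all were called and 1.22% were called lower. The groups were apart at 8 of the 16, 6 lower and 2 higher in recovery mice, against 8.24% of all in either direction (3.99% lower and 4.26% higher). The 6 lower ones were both probe sets of Ahr, those of Cyp1a1 and Cyp1a2, and Tiparp 1426721_s_at and 1452160_at. At Tiparp 1452161_at recovery and SHS4m arrays overlapped, and the 2 higher ones belonged to Arnt. The median difference of -0.36 compares with 0.00 over all. The comparisons share their arrays in pairs, so the fall against SHS4m and the lack of a call against control are not independent.

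**Figure D4:**
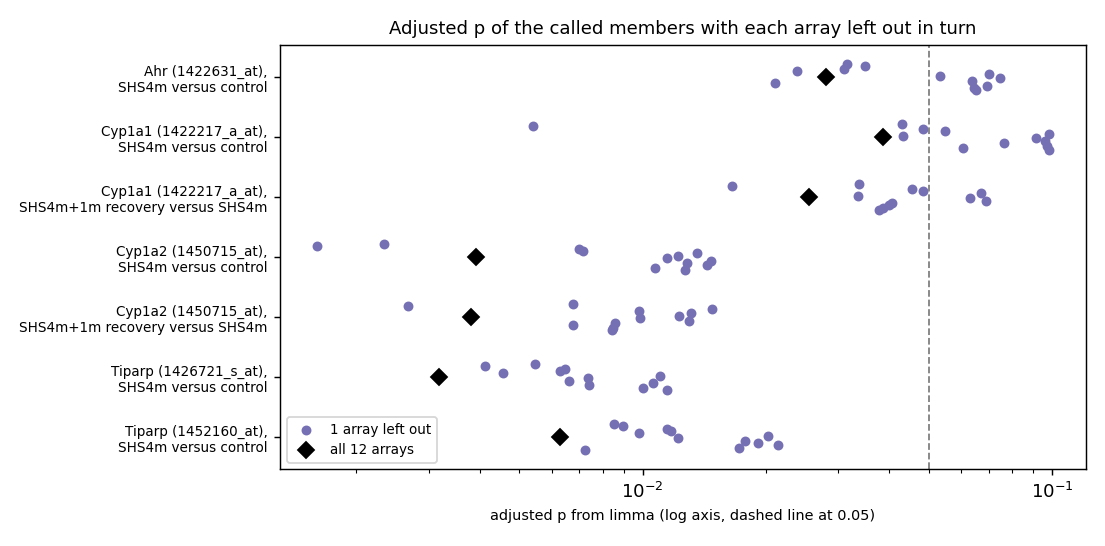
Adjusted p from limma (x axis, log scale, dashed line at 0.05) of the 7 called differences (y axis), with all 12 arrays (diamonds) and with each array left out in turn (points). Those of Cyp1a2 and Tiparp stay under 0.05 in 12 of 12 fits, that of Ahr in 5, and those of Cyp1a1 in 4 against control and 9 against SHS4m.

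Of 49 further genes of the AHR pathway, 39 had a probe set that named them alone, and the brightest was read. In SHS4m mice 6 of the 39 were higher than in control mice and 0 lower, with a median log2 difference of -0.06. Of all probe sets, dim ones included, 5.40% were called and 2.52% were called higher. Calls at other probe sets of the list genes ran both ways. They were lower at Socs2 1442586_at (-1.37, adjusted p = 0.033) and higher at Cd36 1450884_at (0.77, adjusted p = 0.0436), Lpin1 1418288_at and Nfe2l2 1457117_at. In recovery mice 0 differed from control by limma (background 2.07%), with 12 at an unadjusted p under 0.05 (13.3% of all probe sets). The threshold of the study was passed by 4 (1.37%): Arntl (-2.28), Src (-1.08) and Cdkn1a (-1.06) below control and Lpin1 (1.93) above it. Against SHS4m mice 3 were lower and 0 higher, where 2.54% of all were called and 1.22% were called lower. At other probe sets, recovery mice were lower than control mice for Hsp90aa1 1426645_at (-1.665, adjusted p = 0.0454) and Cyb5r3 1425329_a_at (-0.91, adjusted p = 0.025). They were lower than SHS4m mice for Cd36 1450884_at (-0.90) and Tdo2 1455770_at (-0.55). In SHS4m mice Hsp90aa1 1426645_at differed from control by -1.25 and was not called (adjusted p = 0.0764). The paper lists Hsp90aa1 as lower than control both before and after recovery. Of the 15 AHR-responsive genes measured, 4 were higher in SHS4m mice than in control mice, of 16 partners and complex members 2 were, and none of the 2 genes of P450 electron supply or the 6 enzymes that make tryptophan-derived ligands was. The 10 list genes without such a probe set were not analysed here, among them Ugt1a6a and Gsta1, which share their probe sets with related genes. Por, 1 of the 3 genes of P450 electron supply, was also left unread. The paper lists Por as higher than control both before and after recovery, so the 2 genes read cover electron supply only in part.
Nqo1, the quinone reductase of the AHR gene battery, was 1.92-fold higher in SHS4m mice than in control mice. Its signal (1423627_at) was 329.5, 301, 328 and 399 in recovery mice, 749.8, 612, 743 and 486 in SHS4m mice, and 373, 451, 244 and 296 in control mice. SHS4m arrays stood above all others, with log2 differences of 0.94 from control (95% interval 0.49 to 1.40, adjusted p = 0.0274) and of -0.92 for recovery from SHS4m (adjusted p = 0.0492). The first call was lost without control replicates 3 or 4 or SHS4m replicates 66, 67 or 68 (adjusted p up to 0.0752), and the second held in 3 of 12 such fits, those without control replicate 2 or 3 or SHS4m replicate 69. The second was also lost with the floor of 64, log2(value + 32), quantile normalization, centring, only 8 arrays or trend and robust moderation (adjusted p 0.0503 to 0.0742). Nqo1 is also a target of NRF2, encoded by Nfe2l2, whose 2 probe sets disagreed: they differed between SHS4m and control by -0.66 (adjusted p = 0.141) and, at the dimmer 1457117_at, by 1.44 (adjusted p = 0.0225).
Gsta2, a glutathione transferase, had 11519 to 18322 in recovery mice, 21267 to 27534 in SHS4m mice and 9130 to 15612 in control mice, and SHS4m differed from control by 1.05 (2.07-fold, adjusted p = 0.0166, held in 12 of 12 fits). Aldh3a1, an aldehyde dehydrogenase of the same battery, stayed near the floor, with at most 50.8 in SHS4m mice and 47.1 in control mice (log2 difference -0.07, adjusted p = 0.961). The 95% interval of that difference was -0.46 to 0.32. At these signals a fall of Aldh3a1, or a rise that stayed under the floor, would be hidden or understated. Xdh, xanthine dehydrogenase, was 2988 to 3277 in recovery mice, 3120 to 3555 in SHS4m mice and 2338 to 2762 in control mice. The arrays of both exposed groups lay above those of control for Xdh. The difference was 0.35 in SHS4m mice (adjusted p = 0.0111) and 0.26 in recovery mice (adjusted p = 0.0661, not called). The call in SHS4m mice was lost with log2(value + 32) in place of the floor (adjusted p = 0.0945). Lpin1, a phosphatidate phosphatase, was 2492 to 11619 in recovery mice, 7581 to 10772 in SHS4m mice and 856 to 3330 in control mice. It differed from control by 2.50 in SHS4m mice (5.68-fold, adjusted p = 0.0285, a call removed by dropping control replicate 1, 3 or 4 or any SHS4m replicate) and by 1.93 in recovery mice (adjusted p = 0.126).
Among partners, Epas1, a hypoxia-inducible factor that pairs with ARNT, had 8418 to 9256 in recovery mice, 10070 to 11696 in SHS4m mice and 7147 to 8241 in control mice. The 3 groups did not overlap. SHS4m differed from control by 0.47 (adjusted p = 0.00272) and recovery from SHS4m by -0.28 (adjusted p = 0.0416), the second call holding in 2 of 12 fits, those without control replicate 3 or 4, and lost under 5 processing alternatives (adjusted p 0.0768 to 0.244). Cul4b, the scaffold of a ubiquitin ligase that AHR can join, was higher in SHS4m mice by 0.58 at the probe set read (adjusted p = 0.0137), whereas its other probe set differed by -0.42 (adjusted p = 0.379). Cdkn1a, the cell cycle inhibitor p21, belongs to the AHR-responsive genes and not to the partners. Its signal was 67.8 to 165.5 in recovery mice, 369 to 641 in SHS4m mice and 147 to 334 in control mice. Recovery mice were lower than SHS4m mice by a log2 difference of -2.27 (adjusted p = 0.0098). Against control, the Cdkn1a difference of 1.21 in SHS4m mice missed the threshold (adjusted p = 0.076). In recovery mice it was -1.06, below control, and was not called either (adjusted p = 0.178). Arntl, a bHLH-PAS protein of the circadian clock, differed from control by -1.64 in SHS4m mice (adjusted p = 0.158) and by -2.28 in recovery mice (adjusted p = 0.0863), and the part of the time of day in these results was not tested.

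**Figure D5:**
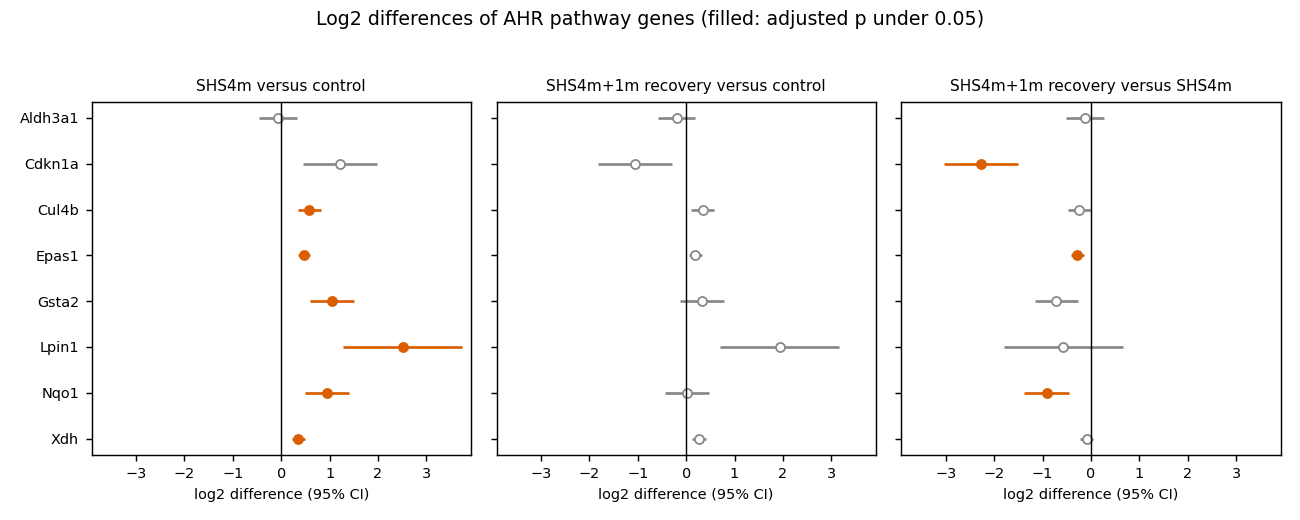
Log2 difference (x axis, with 95% interval) of 8 AHR pathway genes (y axis) in the comparisons of SHS4m with control, SHS4m+1m recovery with control and SHS4m+1m recovery with SHS4m. Filled points passed an adjusted p of 0.05, which 6 genes did in the first comparison, 0 in the second and 3 in the third.

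The genes whose log2 signal followed that of Cyp1a1 most closely over the 12 arrays, among 26085 probe sets above the floor on at least 6 of them, were Pgap6, Egln3, Got1, Gm11827 and Tns1, with Pearson's r of 0.961, 0.952, 0.951, 0.951 and 0.936. Around the group means r was 0.906, 0.892, 0.823, 0.781 and 0.715 in the same order. Without recovery replicate 72 the r of the log2 signals, not taken around the group means, was 0.904 to 0.952. The r around the group means was not computed without that array. Got1, the cytosolic aspartate aminotransferase, differed between SHS4m and control by 1.98 (adjusted p = 0.00209) and between recovery and SHS4m by -2.28 (adjusted p = 0.00221). For Egln3, a prolyl hydroxylase that acts on hypoxia-inducible factors, these differences were 0.48 (adjusted p = 0.137) and -0.59 (adjusted p = 0.106). The signal of Ahr was followed most closely by Surf4, Shb, Spring1, Tbrg4 and 4632427E13Rik (r = 0.946, 0.94, 0.927, 0.927 and 0.914). Around the group means their r was 0.833, 0.806, 0.777, 0.753 and 0.765 in the same order. These values describe 12 arrays that share 3 groups and carry no test.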

How the data were processed

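Liver RNA was measured on 12 Affymetrix mouse whole-genome expression arrays, in 3 groups of 4 taken from the sample labels. From the scans the authors derived 1 linear intensity value per probe set with Affymetrix Expression Console, and deposited values whose mean was 500 on each array once the upper and lower 2% were trimmed. The sources used here do not name the summarisation algorithm. The trimmed mean fixes only the overall scale of an array, so shifts between arrays at other signal levels remain.
Values below 32 were raised to 32 and log2 was taken. The 64 control probe sets of the array were left out, and 45037 were tested in 1 limma model of the 3 groups (limma 3.58.1, R 4.3.3), two-sided, with Benjamini-Hochberg adjustment over all and a threshold of 0.05. The script was tested on simulated data. With 4 arrays per group, their number limits the precision. Tables were made in Python 3.11.15 with pandas 2.3.3 and numpy 2.4.6.
All probe sets that name 1 of the 7 genes alone were used, and no probe set named a member beside other genes. Gene symbols came from the platform annotation. Of the pathway list, every called gene and Nqo1, Aldh3a1, Ugt1a6a and Gsta1 were to be named, and for Cyp1a1 and Ahr the 5 genes with the most similar signal. Nfe2l2, Arntl and Src are named beside them and were chosen after their values were seen. The same holds for list genes called only at a probe set other than their brightest. Members and lists were chosen with earlier results of these data known. The alternatives were a floor of 64, log2(value + 32), quantile normalization, centring on the median, leaving out dim probe sets (above the floor on fewer than 4 arrays), fitting only the 8 arrays compared, trend and robust moderation, the threshold of the study and leaving out each array in turn.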

Additional observations from a re-analysis of the deposited data

Results flagged for a closer look

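Within 9 of the 48 sets of 4 arrays (16 probe sets in 3 groups), 1 array lay far from the other 3 by Dixon's test, which by chance marks about 1 in 20 such sets, and neighbouring values tied at the floor raise that share. For Ahr 1450695_at the distant log2 signal was 6.84 in SHS4m mice and 6.72 in control mice (replicate 4). For Cyp1a2 it was 14.82 in control mice, with the other 3 close together. The rest belonged to dim probe sets: 5.58 for Arnt 1425064_at in recovery mice, 5.40 for Ahrr in recovery mice, 5.17 for Ahrr in SHS4m mice, 5.33 for Ahrr in control mice, 5.88 for Cyp1b1 1416612_at in recovery mice and 5.03 for Cyp1b1 1416613_at in control mice.
The difference from control was itself different between the exposed groups for Cyp1a1 and Cyp1a2, by the comparison of SHS4m+1m recovery with SHS4m in the limma model. It was -2.25 on the log2 scale for Cyp1a1 (adjusted p = 0.0255), with all 4 recovery arrays below all 4 SHS4m arrays, and -0.50 for Cyp1a2 (adjusted p = 0.00381), again with 4 of 4 below.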

How the results depend on the processing

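With the floor of 64, log2(value + 32), quantile normalization, centring, the filter on dim probe sets, the fit of only 8 arrays and trend and robust moderation, 5 member probe sets were called in SHS4m mice against control, and 0 in recovery mice against control. With the threshold of the study the first count was 2 (Cyp1a1 and the dim Ahr 1450695_at). Leaving out each array gave 3 to 5 in SHS4m mice against control, 0 in recovery mice against control, and 1 to 3 in recovery mice against SHS4m mice, for which 2 were called with all arrays. The last count was 1 with only the 8 arrays compared, when the adjusted p of Cyp1a1 was 0.0912, and 1 with the threshold of the study. Pathway genes called in recovery mice against SHS4m mice numbered 3, but 1 with log2(value + 32), quantile normalization, centring or only 8 arrays, and 1 to 4 when an array was left out. Against control, at the adjusted p, the count was 0 to 1 in recovery mice and 4 to 7 in SHS4m mice when an array was left out. With the threshold of the study in place of the adjusted p, recovery mice had 4 pathway genes past it, where 1.37% of all probe sets passed.
In SHS4m mice against control, Nqo1 was not called with only 8 arrays (adjusted p = 0.0799). Xdh was not called centred (0.0515) or with dim probe sets left out (0.0702). Cdkn1a was called higher with log2(value + 32) (0.0477). With only 8 arrays, Hsp90aa1 (-0.50, adjusted p = 0.0444) and Kmo (-0.21, adjusted p = 0.0291) were called lower. Both were also called lower with an array left out, Hsp90aa1 without recovery replicate 70 (0.044) and Kmo without recovery replicate 71 (0.0445).
Sign changed only in differences that were called under no setting. In SHS4m against control it did so for Arnt 1421721_a_at (-0.0463 with the floor of 64, -0.298 to 0.262 without 1 array), Arnt 1425064_at (-0.0538 with the floor of 64, -0.107 to 0.344 without 1 array), Arnt 1437042_at (0.0211 with quantile normalization, 0.0522 centred, -0.091 to 0.0375 without 1 array), Arnt 1449696_at (0.0546 with quantile normalization, 0.052 centred, -0.383 to 0.162 without 1 array), Ahrr (0.112 with log2(value + 32), 0.000945 with quantile normalization, 0.0376 centred, -0.0826 to 0.0421 without 1 array), Cyp1b1 1416612_at (0.0747 with log2(value + 32)) and Tiparp 1452161_at (0.0357 with quantile normalization, 0.0237 centred, -0.209 to 0.0613 without 1 array). In recovery against control it did so for Ahrr (-0.00105 with quantile normalization, -0.0826 to 0.1 without 1 array), Cyp1b1 1416613_at (0.0715 centred), Arnt 1421721_a_at (-0.58 to 0.0604 without 1 array) and Arnt 1449696_at (-0.0925 to 0.452 without 1 array). In recovery against SHS4m it did so for Ahrr (-0.00199 with quantile normalization, -0.0421 to 0.1 without 1 array) and Cyp1b1 1416612_at (-0.129 with log2(value + 32), -0.137 to 0.155 without 1 array). The cause was not tested.
Centring moved the share of higher calls over all probe sets to 60.9% in SHS4m against control and 57.3% in recovery against control, beside 46.7% and 42.4% as scaled by the authors. No paired analysis was possible because the groups share no replicate numbers. Signals near the floor limit what can be seen of Ahrr, Cyp1b1 and Aldh3a1.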
